A study of Homo sapiens with 6 samples.

Results

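The subject is a set of 7 transcription factors of the intestinal lineage, CDX1, CDX2, HNF4A, GATA6, SOX9, FOXA2 and ATOH1. They were picked by gene symbol, and each matched 1 of the 60605 genes in the table. The libraries come from SW480, an established cell line from a human colon adenocarcinoma. The tested cells carry a lentivirus that overexpresses TIPE, the protein encoded by TNFAIP8, and the control cells carry the empty vector. Both were kept under puromycin before RNA was taken. There were 3 TIPE and 3 vector libraries of poly(A) RNA. Nothing in the labels ties the replicates of a group to different infections or dishes. The p-values therefore measure only how much these 6 libraries vary, and that variation may be technical. What promoter drives TIPE in the virus was not stated in the labels.

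These factors divide the work of making and keeping gut epithelium. CDX1 and CDX2 are caudal-type homeobox proteins that set intestinal identity. HNF4A, a nuclear receptor, and GATA6, a zinc finger protein, act in endoderm and in the absorptive epithelium, and FOXA2 is a forkhead pioneer factor of the endoderm. SOX9, an HMG-box protein, is known for crypt base progenitors and Paneth cells, and ATOH1, a bHLH protein, for commitment to the secretory lineage.

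CDX2 rose 1.89-fold in TIPE libraries, the largest change among the 5 factors that were measured. FOXA2 rose 1.21-fold and GATA6 was 1.35-fold lower. SOX9 and HNF4A, both well expressed, did not pass the test. CDX1 and ATOH1 had 0 counts in all 6 libraries. So 3 of the 5 measured factors changed, 2 upward and 1 downward, where 41.5% of all 14205 tested genes passed. The upward calls made up 20.9% of all tested genes and the downward calls 20.7%. A gene passed where edgeR's quasi-likelihood test gave a p under 0.05 after Benjamini-Hochberg adjustment over all tested genes. The share of members that passed is close to that background and is not a result about the set. The median log2 fold change of the 5 was -0.0080, and that of all tested genes was -0.00048. In the fit without the expression filter the same 3 members passed, where 20.1% of all genes did. With each library's dependence on GC content and exon length taken out, CDX2 was higher and GATA6 and SOX9 were lower, where 34.9% of all genes passed. In limma on FPKM rescaled to equal totals, CDX2 was higher and GATA6 and SOX9 lower, where 38% of all genes passed, 9.22% upward and 28.8% downward. That rescaling moved the median log2 fold change of all genes to -0.11 and left 24.3% of calls upward, against 50.3% in edgeR on the counts. In bulk RNA, fewer cells of a kind and less RNA per cell cannot be told apart.

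Total counts lay between 13957349 and 20345330 in the TIPE libraries and between 14472231 and 19496484 in the vector libraries. TNFAIP8 had 530 to 626 FPKM in TIPE libraries, against 0.84 to 1.34 FPKM in vector libraries, as the labels require. FPKM is the count scaled by exonic length and by the total count of the library. Of 10 epithelial markers 9 were measured, with 3 higher (KRT18, KRT8 and KRT19), 3 lower (CDH1, CLDN7 and EPCAM) and 3 that did not pass. CDH1, which encodes E-cadherin, had 12.72 to 14.46 FPKM in TIPE libraries, against 34.89 to 37.37 FPKM in vector libraries (log2 fold change -1.32, edgeR adjusted p = 4.14e-12). The tight junction gene CLDN7 was at -0.72 (adjusted p = 0.000207), and the keratins KRT18 and KRT8 were at 0.71 and 0.36 (1.83e-08 and 3.17e-05). KRT8 lost its call in limma after quantile normalization (0.04, adjusted p = 0.523). EPCAM was at -0.20 (adjusted p = 0.0309) and lost its call on leaving out any library but TIPE replicate 3 (0.0584 to 0.173). Summed FPKM of the 10, most of it from keratins, was 1639 to 1698 in TIPE libraries and 1276 to 1374 in vector libraries. The 8 fibroblast markers summed to 2.37 to 3.39 and 1.78 to 2.84 FPKM in TIPE and vector libraries, with COL1A2 and COL3A1 at 0. Most of that sum was LUM, the only 1 measured, at 1.73 to 2.66 FPKM in TIPE libraries and 1.47 to 2.35 FPKM in vector libraries. LUM did not pass (0.23, edgeR adjusted p = 0.314). Among the other fibroblast markers PDGFRB, under the filter and near CDX1 in the genome, was higher in TIPE libraries. PDGFRB was at 0.51 to 0.56 FPKM there, against 0.17 to 0.34 FPKM in vector libraries. The 6 endothelial markers summed to 0.25 to 0.35 and 0.14 to 0.21 FPKM, with KDR at 0. The 8 macrophage markers summed to 0.34 to 0.78 and 0.49 to 0.62 FPKM, and the 7 lymphocyte markers to 0.12 to 0.31 and 0.10 to 0.24 FPKM, in TIPE and vector libraries. PTPRC, CD163 and AIF1 were at 0. Of 8 mitochondrial transcripts, taken as signs of RNA quality, 1 rose. This was MT-CO1 with a log2 fold change of 0.21 (edgeR adjusted p = 0.0424). That call was lost when TIPE replicate 2 was left out (adjusted p = 0.318), and likewise for vector replicate 1 (0.232) or 2 (0.111). Their part in the results was not tested.

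Per exonic length, the factors fell into an order of level. SOX9 was at 74.96 to 78.42 FPKM in TIPE libraries and 82.70 to 84.43 FPKM in vector libraries, followed by FOXA2, HNF4A, then CDX2 and GATA6. The 3 upper ranks did not meet in any library. The last ranks did differ between the groups, with CDX2 above GATA6 in every TIPE library and below it in every vector library. The margin was small in vector replicate 3 (1.38 FPKM for CDX2 and 1.47 for GATA6, on 70 and 81 counts). It was also small in vector replicate 2 (1.40 and 1.54 FPKM, on 96 and 114 counts). The deposited exon length of HNF4A is 11917 bp, against 2719 to 3931 bp for the other 4, and divides its count accordingly.

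**Figure D1:**
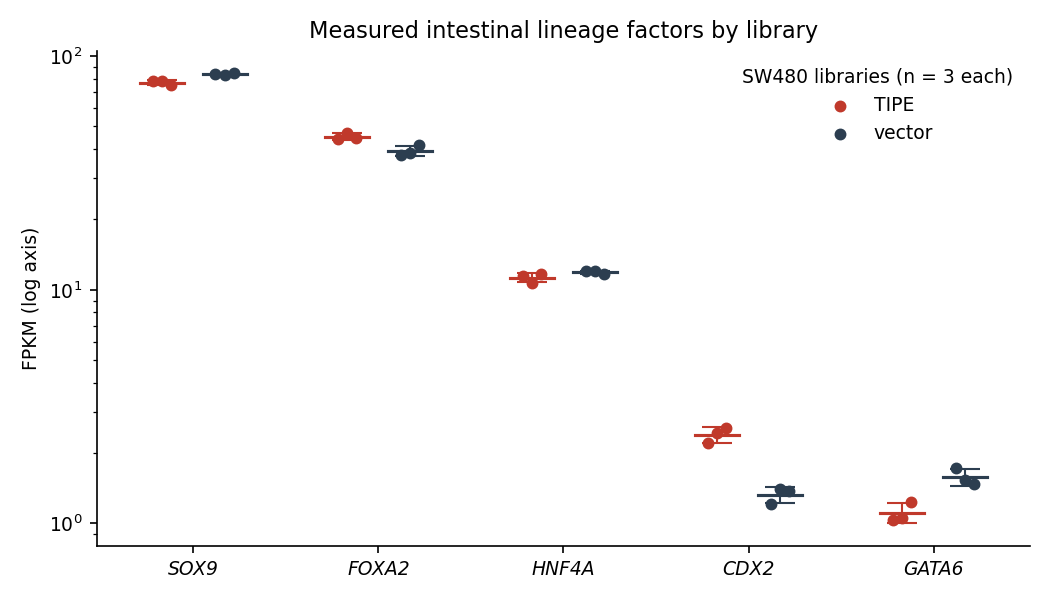
FPKM of the 5 measured factors on a log axis, with 1 point per library, a line at the mean and bars of 1 SD (n = 3 TIPE and 3 vector libraries). CDX2 stands at 2.20 to 2.55 FPKM in TIPE libraries and 1.21 to 1.40 in vector libraries, and GATA6 at 1.04 to 1.24 and 1.47 to 1.72 FPKM. CDX1 and ATOH1 are not drawn because both had 0 counts.

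Promoter windows from RefSeq (GRCh38.p14) were at hand for 4 of the 7 members, and none for CDX1, SOX9 or FOXA2. FOXA2, which also changed, is therefore not shown. Promoter sequence is given for CDX2 and GATA6, which changed, and for both starts of HNF4A, which did not pass. Each window is the 250 bases before the start, read 5′ to 3′ on the gene's strand. CDX2 lies at chr13:27969316-27969565 (minus), GATA6 at chr18:22169339-22169588 (plus), the upstream HNF4A start at chr20:44355449-44355698 (plus) and the downstream one at chr20:44400989-44401238 (plus). Capitals mark letters matching 1 of 5 motifs on either strand.
CDX2: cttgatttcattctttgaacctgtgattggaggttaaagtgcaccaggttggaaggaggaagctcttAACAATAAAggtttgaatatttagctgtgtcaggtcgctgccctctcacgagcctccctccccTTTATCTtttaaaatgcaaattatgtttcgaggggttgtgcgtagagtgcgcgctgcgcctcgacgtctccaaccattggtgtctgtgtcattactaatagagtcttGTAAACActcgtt
GATA6: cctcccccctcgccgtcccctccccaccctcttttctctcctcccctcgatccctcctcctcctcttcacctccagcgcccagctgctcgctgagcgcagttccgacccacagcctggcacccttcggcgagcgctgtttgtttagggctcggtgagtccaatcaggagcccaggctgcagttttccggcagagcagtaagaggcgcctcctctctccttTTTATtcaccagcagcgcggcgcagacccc
HNF4A upstream start: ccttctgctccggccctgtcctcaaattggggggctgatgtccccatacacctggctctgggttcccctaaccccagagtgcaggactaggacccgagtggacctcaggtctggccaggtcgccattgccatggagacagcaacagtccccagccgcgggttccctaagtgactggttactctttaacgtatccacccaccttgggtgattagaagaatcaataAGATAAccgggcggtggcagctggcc
HNF4A downstream start: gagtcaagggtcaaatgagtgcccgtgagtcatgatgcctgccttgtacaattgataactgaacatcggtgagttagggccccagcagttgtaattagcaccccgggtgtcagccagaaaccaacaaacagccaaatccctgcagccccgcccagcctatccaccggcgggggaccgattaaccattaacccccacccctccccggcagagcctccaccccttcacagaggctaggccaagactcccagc

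The motifs searched were TTTAT for CDX factors, AGATAA for GATA factors, TGTTTAC for FOXA factors, ATTGTT for SOX factors and CAAAGNNCA for HNF4, each with its reverse complement. The CDX2 window held 5 matches. These were a SOX match at -183 to -178 from the start, CDX matches at -179 to -175 and at -120 to -116, a GATA match at -119 to -114 and a FOXA match at -13 to -7. The SOX match overlaps the first CDX match, and the GATA match overlaps the other. The GATA6 window held a CDX match at -30 to -26, and the upstream HNF4A window a GATA match at -26 to -21. Over 35116 RefSeq windows of this length, 32.7% held the CDX motif, 9.17% the GATA motif, 2.98% the FOXA motif, 8.98% the SOX motif and 4.44% the HNF4 motif. The downstream HNF4A window and that of ATOH1 held none of these letters. A match is a description and not a binding site.

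CDX2 (ENSG00000165556, chr13:27960918-27969315, minus strand, hg38) had counts of 127, 175 and 125 in TIPE replicates 1, 2 and 3. In vector replicates 1, 2 and 3 it had 65, 96 and 70. As FPKM these were 2.20, 2.45 and 2.55 in the TIPE libraries and 1.21, 1.40 and 1.38 in the vector libraries. Every TIPE library lay above every vector library. The means were 2.40 ± 0.180 FPKM in TIPE libraries and 1.33 ± 0.104 FPKM in vector libraries (SD, n = 3 each). The log2 fold change was 0.92 ± 0.14 (SE, edgeR adjusted p = 2.09e-05). Of the 14205 tested genes, 263 had a larger log2 fold change. The longest CDX2 transcript is 56.4% GC, and the 861 tested genes within 1 percentage point of it had a median log2 fold change of 0.14. After removal of the trend on GC content and exon length CDX2 was at 0.76 (edgeR adjusted p = 0.000175). CDX2 passed under all 17 alternatives, with log2 fold changes of 0.50 to 0.98.

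FOXA2 (ENSG00000125798, chr20:22580998-22585455, minus strand) was at 44.06, 46.96 and 44.69 FPKM in TIPE replicates 1, 2 and 3. In vector replicates 1, 2 and 3 it was at 37.81, 38.56 and 41.65 FPKM. The groups did not overlap, and the gap between the lowest TIPE and the highest vector library was small. The log2 fold change was 0.27 ± 0.06 (SE, edgeR adjusted p = 0.00111). Fold changes followed GC content across all genes, with a median log2 fold change of -0.21 in the fifth of the genes poorest in GC and 0.19 in the fifth richest in GC. The longest FOXA2 transcript is 58.2% GC, and the 824 tested genes within 1 percentage point of it had a median of 0.14. Once that trend was taken out, together with the trend on exon length, FOXA2 was at 0.10 and did not pass (adjusted p = 0.152). LINC00261, a long noncoding RNA just past the 3′ end of FOXA2 on the same strand, also rose. It averaged 14.7 ± 1.19 FPKM in TIPE libraries and 11.7 ± 0.938 FPKM in vector libraries (SD, n = 3 each). It rose by 0.38 on the log2 scale (edgeR adjusted p = 0.000119), or by 0.48 once the GC and length trend was taken out. It did not pass in limma on FPKM of equal totals (0.24, adjusted p = 0.0517). LINC00261 was the only measured gene within 250 kb of FOXA2.

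GATA6 (ENSG00000141448, chr18:22169589-22202528, plus strand) had counts of 65, 82 and 66 in TIPE replicates 1, 2 and 3. In vector replicates 1, 2 and 3 it had 100, 114 and 81. In FPKM it averaged 1.11 ± 0.110 in TIPE libraries and 1.58 ± 0.129 in vector libraries (SD, n = 3 each), with no overlap. The log2 fold change was -0.43 ± 0.15 (SE, edgeR adjusted p = 0.0269). The call was lost, at log2 fold changes of -0.46 to -0.38, in DESeq2 (adjusted p = 0.0749), without TIPE replicate 1 (0.0810), without TIPE replicate 2 (0.0846), without vector replicate 1 (0.101) and without vector replicate 2 (0.0581). The 835 tested genes of like GC content (55.3%, within 1 point) had a median of 0.12, on the other side of 0. After removal of the trend GATA6 was at -0.57 (adjusted p = 0.00597). GATA6-AS1, which overlaps GATA6 on the opposite strand, had 1, 4 and 0 counts in TIPE replicates 1, 2 and 3 and 0 in each vector library.

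SOX9 (ENSG00000125398, chr17:72121020-72126416, plus strand) was at 78.42, 77.95 and 74.96 FPKM in TIPE replicates 1, 2 and 3. In vector replicates 1, 2 and 3 it was at 83.69, 82.70 and 84.43 FPKM. On this scale every TIPE library was below every vector library. After TMM scaling of library sizes the log2 fold change was -0.05 ± 0.05 (SE, edgeR adjusted p = 0.530). The approximate 95% interval ran from -0.15 to 0.06. SOX9 passed as lower in limma on log2(FPKM + 1) (-0.12, adjusted p = 0.0474) and in edgeR after removal of the trend (-0.12, adjusted p = 0.0477). With the replicate block added to that removal it did not pass (-0.12, adjusted p = 0.0882). SOX9-AS1, antisense to SOX9, had 11 to 18 counts in TIPE libraries and 14 to 17 in vector libraries.

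HNF4A (ENSG00000101076, chr20:44355700-44434596, plus strand) was at 11.46, 10.70 and 11.63 FPKM in TIPE replicates 1, 2 and 3. In vector replicates 1, 2 and 3 it was at 11.98, 12 and 11.67 FPKM. TIPE replicate 3 and vector replicate 3 nearly met. The log2 fold change was -0.0080 ± 0.05 (SE, edgeR adjusted p = 0.922), and the approximate 95% interval ran from -0.12 to 0.10. It passed under none of the 17 alternatives. Counts are per gene, so transcripts from the upstream and downstream starts of HNF4A were not told apart. HNF4A-AS1, on the opposite strand, had 0 counts in each TIPE library and 1, 2 and 0 in vector replicates 1, 2 and 3.

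The FPKM values of the groups did not overlap at any of the 5 measured factors, and they did not overlap at 50.5% of all tested genes. CDX1 (ENSG00000113722, chr5:150166778-150184558) and ATOH1 (ENSG00000172238, chr4:93828753-93830964) had no read in any library. A count of 0 allows up to 3 counts, which is 0.083 to 0.121 FPKM for CDX1 and 0.067 to 0.097 FPKM for ATOH1. These limits cover counting error only. Both genes were under the expression filter, a mean of 0.5 FPKM, and were not tested.

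**Figure D2:**
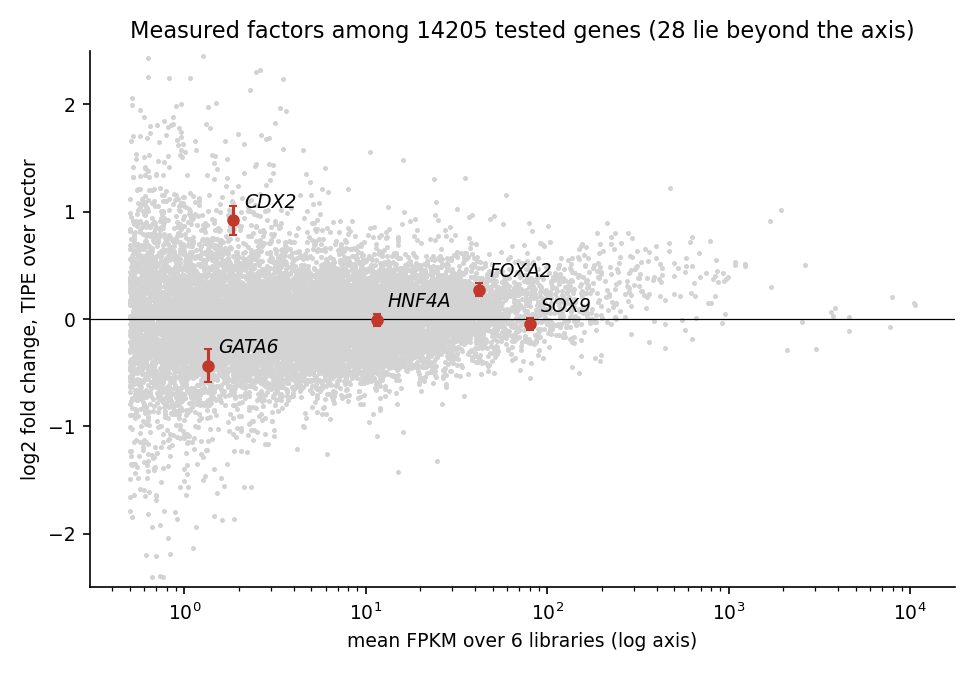
Log2 fold change of TIPE over vector against the mean FPKM of 6 libraries (log axis) for 14205 tested genes in grey, with the 5 measured factors in red and bars of 1 standard error. 28 genes lie beyond the vertical axis. CDX2 at 0.92 and GATA6 at -0.43 sit at the low end of the levels, and SOX9 and HNF4A near 0.

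**Figure D3:**
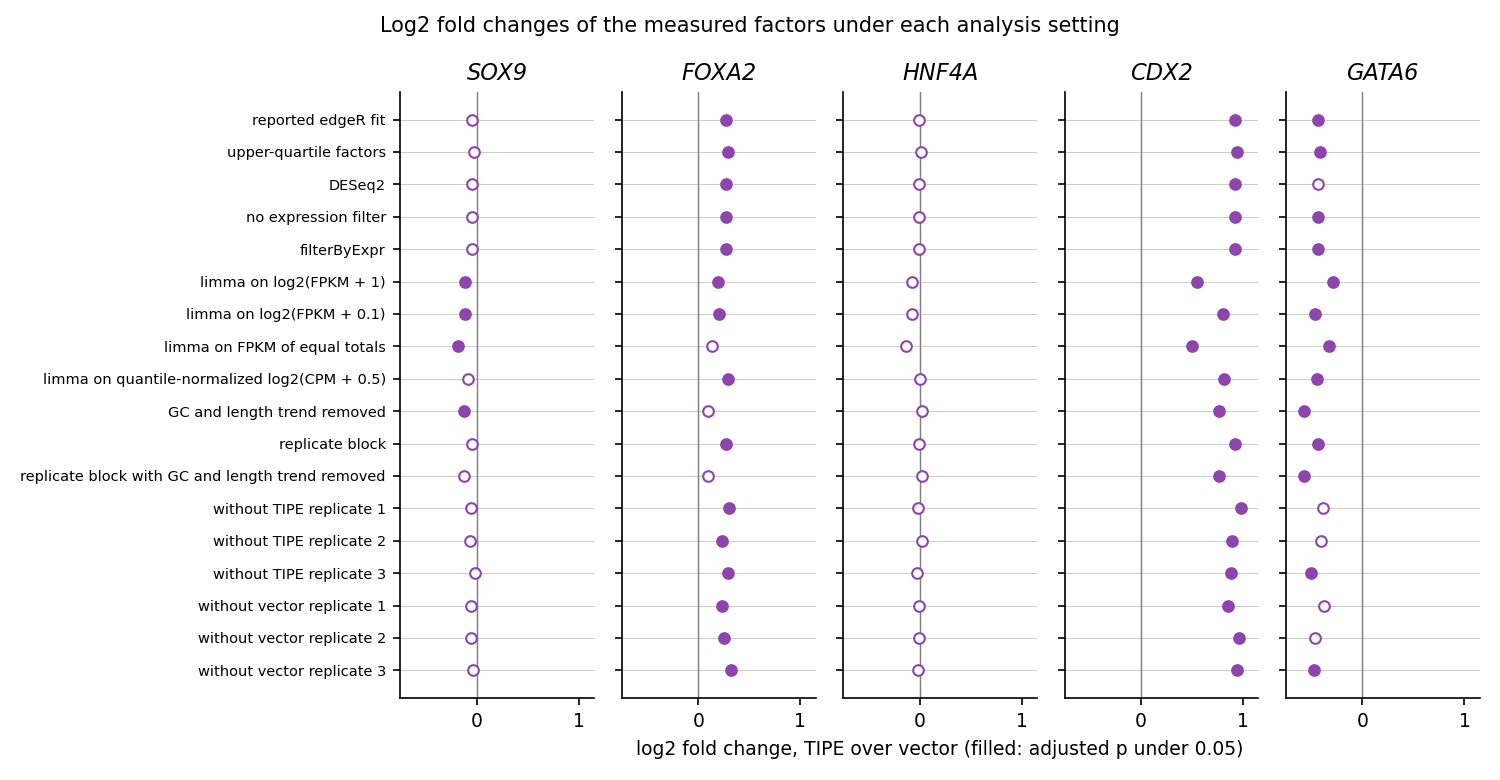
Log2 fold change of TIPE over vector for each measured factor (columns) in the reported edgeR fit and 17 alternatives (rows), filled where the adjusted p was under 0.05. CDX2 is filled in every row, FOXA2 is open in 3 alternatives, GATA6 in 5, SOX9 is filled in 4 alternatives and HNF4A in none.

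The ratio of 2 genes within a library does not depend on how that library is scaled. SOX9 stood at 35.6, 31.8 and 29.4 times the FPKM of CDX2 in TIPE replicates 1, 2 and 3. In vector replicates 1, 2 and 3 it stood at 69.2, 59.1 and 61.2 times. The groups did not overlap. The log2 ratio averaged 5.01 ± 0.140 in TIPE libraries and 5.98 ± 0.119 in vector libraries (SD, n = 3 each), a difference of -0.97. The exact two-sided permutation p was 0.1, the smallest that 3 against 3 can give. HNF4A stood at 4.37 to 5.21 times CDX2 in TIPE libraries and 8.46 to 9.90 times in vector libraries. The difference in log2 ratio was -0.93 (exact permutation p = 0.1, n = 3 each). These 2 ratios share CDX2, and with 2 tests the adjusted p is also 0.1.

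Of 40 other transcription factors listed for the intestine, 22 were measured. Of these, 3 rose, 9 fell and 10 did not pass, with a median log2 fold change of -0.06 against -0.00048 over all tested genes. Over all tested genes 20.9% were called higher and 20.7% lower, and these shares stand beside the counts of each list below. No list was tested as a set. After removal of the GC and length trend 3 of the 22 were higher and 7 lower, with a median of -0.09. In that fit 17.6% of all genes were higher and 17.4% lower. ASCL2, a bHLH factor of crypt stem cells, had 42.76, 39.95 and 46.32 FPKM in TIPE replicates 1, 2 and 3, against 29.14, 31.05 and 30.34 FPKM in vector replicates 1, 2 and 3. It rose by 0.58 on the log2 scale (edgeR adjusted p = 9.17e-07). The forkhead factor FOXQ1 had 168.5 to 180.9 FPKM in TIPE libraries, against 134.7 to 142.5 in vector libraries, and rose by 0.39 (adjusted p = 9.43e-06). After removal of the GC and length trend ASCL2 was at 0.30 and FOXQ1 at 0.18, and both passed (adjusted p = 0.000268 and 0.00485). The vitamin D receptor VDR, a nuclear receptor, was at 3.34 to 3.94 FPKM in TIPE libraries and 6.95 to 7.10 FPKM in vector libraries. Its log2 fold change of -0.86 (adjusted p = 3.56e-08) was close in size to that of CDX2, with the other sign. ONECUT2, a cut-homeobox factor, fell to 0.40 to 0.45 FPKM in TIPE libraries, against 0.70 to 0.85 FPKM in vector libraries. On the log2 scale it was at -0.82 (adjusted p = 1.08e-05). The other 18 lay under the filter, 7 of them with 0 counts in every library, and none of the rest passed in edgeR without the filter. FOXA1 and GATA4, paralogs of FOXA2 and GATA6, were among those at 0. PDX1, which neighbours CDX2 in the ParaHox cluster, had 15, 7 and 5 counts in TIPE replicates 1, 2 and 3 and 16, 13 and 13 in vector replicates 1, 2 and 3. PDX1 was at -0.61 on the log2 scale (edgeR without the filter, adjusted p = 0.428).

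**Figure D4:**
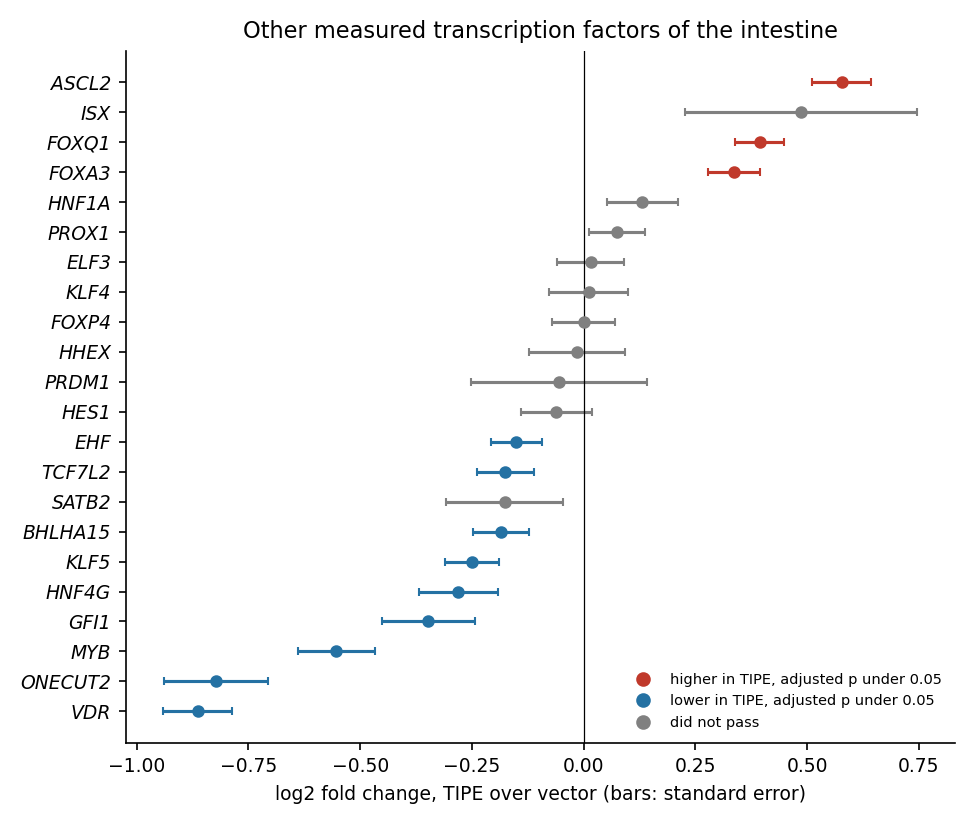
Log2 fold change of TIPE over vector, with bars of 1 standard error, for the 22 measured transcription factors listed for the intestine beside the members. The 3 that rose (ASCL2, FOXQ1 and FOXA3) are in red, the 9 that fell in blue and the 10 that did not pass in grey, from 0.58 for ASCL2 to -0.86 for VDR.

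Among relatives of the members, the GATA factors GATA2 and GATA3 fell with GATA6. GATA2 was at 1.49 to 1.70 FPKM in TIPE libraries and 2.42 to 2.73 FPKM in vector libraries, a log2 fold change of -0.60 (edgeR adjusted p = 0.000368). GATA3 was at 1.51 to 1.90 FPKM in TIPE libraries and 2.27 to 2.93 FPKM in vector libraries, one of -0.54 (adjusted p = 0.00380). ZFPM1, a cofactor of GATA proteins, rose (0.39, adjusted p = 0.00386), but was at 0.20 after removal of the GC and length trend (adjusted p = 0.104). Of 8 genes in that list 4 were measured, with 1 higher and 2 lower and a median of -0.07, or -0.23 after that removal. Of 19 other SOX genes 8 were measured, with 3 higher, 1 lower and a median of 0.06, or 1 higher, 2 lower and a median of -0.10 after removal of the GC and length trend. SOX2, a factor of foregut and stem cells, fell to 23.77 to 28.38 FPKM in TIPE libraries, against 43.70 to 43.87 FPKM in vector libraries (log2 fold change -0.72, adjusted p = 4.24e-08). SOX12, SOX13 and SOX4 rose by 0.24, 0.27 and 0.17. SOX13 was at 0.15 after that removal (adjusted p = 0.0274) and did not pass with the replicate block added to it (0.0519). SOX12 was at 0.05 after removal of the GC and length trend (adjusted p = 0.529), and SOX4 lost its call there (0.0740) and without vector replicate 1, 2 or 3 (0.0626, 0.0641 and 0.0578). Under the filter SOX1, named after its values were seen, rose (1.08, edgeR without the filter, adjusted p = 0.000317), where 10.1% of the 29836 genes of that fit were called higher.

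Of 12 genes of the FOXA, HNF, ONECUT and NR2F families, 7 were measured, with 2 higher, 3 lower and a median of -0.17. After removal of the GC and length trend none was higher and 2 were lower, with a median of -0.09. FOXA3, a paralog of FOXA2, had 36.73 to 38.13 FPKM in TIPE libraries, against 30.74 to 31.88 FPKM in vector libraries. Its log2 fold change of 0.34 (edgeR adjusted p = 0.000103) was 0.13 after removal of the GC and length trend (adjusted p = 0.0705), so that FOXA3 and FOXA2 lost their calls under the same setting. The nuclear receptor NR2F1 fell (-0.71, adjusted p = 2.59e-06), and its relative NR2F6 rose (0.45, adjusted p = 0.000337), which was 0.19 after removal of the trend (adjusted p = 0.0679). Of the 5 under the filter none passed.

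Genes that CDX and HNF4A factors are known to serve in differentiated gut mostly lay under the filter. Of 20 listed as linked to CDX factors, 5 were measured, 1 rose and 1 fell, with a median of -0.03. CDH17, LGALS4 and KRT20, which mark differentiated intestinal epithelium, were at most at 0.18, 0.15 and 0.10 FPKM in TIPE libraries and 0.17, 0.28 and 0.05 FPKM in vector libraries. The brush border genes CDHR2 and VIL1 were expressed. CDHR2 rose (log2 fold change 0.28, edgeR adjusted p = 0.00854) but lost its call without TIPE replicate 2 (0.0507), without vector replicate 2 (0.0767) and after removal of the GC and length trend (0.205). EPHB2, a receptor of crypt cells, fell (-0.18, adjusted p = 0.0245). That call was lost without TIPE replicate 1 (0.0634), TIPE replicate 3 (-0.13, adjusted p = 0.0519), vector replicate 1 (0.0797) and vector replicate 2 (0.0617). VIL1 was at -0.10 (adjusted p = 0.185), but passed as lower in limma on log2(FPKM + 1) (-0.16, adjusted p = 0.0378). Under the filter GPA33, a surface antigen of colon epithelium, fell on very few counts, with a log2 fold change of -1.68 in edgeR without the filter (adjusted p = 0.0313). It was the only 1 of the 15 under the filter to pass, where 9.93% of the genes of that fit were called lower. Its call was lost without TIPE replicate 1 (adjusted p = 0.172), TIPE replicate 2 (0.0804), vector replicate 1 (0.137) or vector replicate 3 (0.152).

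Of 20 genes linked to HNF4A, 4 were measured, 3 of them higher and none lower, with a median of 0.30. The shares over all tested genes were 20.9% higher and 20.7% lower. ACSL5, an acyl-CoA synthetase, rose to 6.51 to 7.33 FPKM in TIPE libraries, against 3.07 to 3.27 FPKM in vector libraries (log2 fold change 1.16, edgeR adjusted p = 4.11e-09). SERPINA1, the protease inhibitor alpha-1-antitrypsin, rose by 0.33 (adjusted p = 0.00102) but did not pass in limma on FPKM of equal totals (0.18, adjusted p = 0.0797). CDHR2 is also in this list. APOA4, APOC3, FABP2 and TTR had 0 counts in all libraries. Of 16 genes linked to GATA or FOXA factors, 7 were measured, with 4 higher, 2 lower and a median of 0.25, or 2 higher, 2 lower and a median of 0.04 after removal of the GC and length trend. BAMBI, a decoy receptor of TGF-beta signals, rose by 0.47 (adjusted p = 6.79e-05) and the keratin KRT19 by 0.26 (0.000762), which was 0.04 after removal of the trend (adjusted p = 0.504). Of 20 genes linked to SOX9, 10 were measured, with 5 higher, 2 lower and a median of 0.25. COL2A1, a cartilage collagen and classic SOX9 target in chondrocytes, was at 2.08 to 2.52 FPKM in TIPE libraries and 1.14 to 1.33 FPKM in vector libraries (log2 fold change 0.92, adjusted p = 1.47e-06). IGFBP4 rose by 0.38 (1.32e-05), or by 0.16 after removal of the trend (adjusted p = 0.00863). PRSS1, cationic trypsinogen, fell by 1.43 on the log2 scale (7.27e-09), but close trypsinogen copies can share its reads. These lists overlap with the lineage lists that follow.

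By lineage, the genes of the crypt base were broadly expressed and most of those of mature cells lay under the filter. Of 21 crypt base genes, 18 were measured, with 7 higher, 5 lower and a median of 0.14. Beside these counts stand 20.9% higher and 20.7% lower among all tested genes. After removal of the GC and length trend 7 were higher and 3 lower, where 17.6% of all genes were higher and 17.4% lower. SMOC2, a matricellular protein, and NOTUM, a secreted WNT inhibitor, rose by 0.58 and 0.50 (edgeR adjusted p = 1.86e-06 and 3.00e-06), and the receptor TNFRSF19 by 0.45 (0.000657). NOTUM was at 0.25 after removal of the GC and length trend (adjusted p = 0.000794). LRIG1 and MYC also rose, by 0.15 and 0.20 (edgeR adjusted p = 0.0454 and 0.00788). Both lost their calls after that removal (adjusted p = 0.363 and 0.176). The 5 that fell, 4 of them named after their values were seen, were EPHB2, LGR5, MEX3A, SLC12A2 and ZNRF3. LGR5, the R-spondin receptor that marks crypt stem cells, was at 3.83, 4.06 and 4.42 FPKM in TIPE replicates 1, 2 and 3, against 6.04, 5.11 and 4.41 FPKM in vector replicates 1, 2 and 3. The groups overlapped at TIPE replicate 3 and vector replicate 3. Its log2 fold change was -0.27 (edgeR adjusted p = 0.0297). The call was lost on leaving out TIPE replicate 1 (0.0946) or 2 (0.0623) or vector replicate 1 (-0.16, adjusted p = 0.228) or 2 (0.0650), and after removal of the trend (0.102). MEX3A, an RNA-binding protein, was at -0.20 (adjusted p = 0.0125), a call lost without TIPE replicate 2 (0.0874) or vector replicate 1 (0.0771). ZNRF3, a ubiquitin ligase that lowers WNT receptors, was at -0.19 (adjusted p = 0.0169), a call lost without vector replicate 1 (0.0656) or 2 (0.0646). SLC12A2, a chloride cotransporter, was at -0.20 (adjusted p = 0.0467). It turned to 0.03 after removal of the trend, and its call was lost without TIPE replicate 2 (0.212) or vector replicate 1 (0.104) or 2 (0.230). Of 25 absorptive genes, 5 were measured, 1 rose (HSD11B2) and 1 fell (BEST4), with a median of -0.10. HSD11B2 was at 0.27 (adjusted p = 0.00433), or 0.04 after removal of the GC and length trend (0.667). BEST4, a marker of a rare colonocyte subset, was at 0.90 to 1.00 FPKM in TIPE libraries and 1.37 to 1.67 FPKM in vector libraries (-0.57, adjusted p = 0.0227). It lost its call in DESeq2 (0.0626), without TIPE replicate 2 (0.0796) and without vector replicate 1 (0.0923).

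Although ATOH1 had no counts, some genes of the secretory lineage were expressed. Of 31 secretory genes 8 were measured, 5 higher, 1 lower (GFI1, a zinc finger repressor, whose call was lost without vector replicate 2, adjusted p = 0.0617) and 2 that did not pass, with a median of 0.45. Among all tested genes 20.9% were higher and 20.7% lower. None of the 23 under the filter passed in edgeR without the filter. DEFA5, a Paneth cell defensin, was at 39.90, 36.59 and 50.34 FPKM in TIPE replicates 1, 2 and 3, against 19.58, 23.50 and 21.61 FPKM in vector replicates 1, 2 and 3. It rose by 1.02 ± 0.12 on the log2 scale (SE, edgeR adjusted p = 9.05e-07). The granins CHGB and SCG2, which enteroendocrine cells store in secretory granules, rose by 0.56 and 0.51 (adjusted p = 3.36e-07 and 0.00260). The trefoil peptide TFF3 had 21.38 to 24.40 FPKM in TIPE libraries, against 16.63 to 19.64 FPKM in vector libraries (0.40, adjusted p = 0.00166). TFF3 was at 0.23 after removal of the GC and length trend (adjusted p = 0.0392). The goblet mucin MUC2 was at most at 0.02 FPKM in either group. Of 15 gastric or foregut genes 3 were measured. SOX2 fell, the junction protein VSIG1 rose to 6.60 to 7.12 FPKM in TIPE libraries, against 3.28 to 3.51 FPKM in vector libraries (1.08, adjusted p = 1.11e-08), and TFF2 did not pass (-0.10, 0.744). Of the 12 under the filter, MUC6, a gastric mucin named after its values were seen, fell in edgeR without the filter (-2.95, adjusted p = 0.000588). It had 4, 0 and 0 counts in TIPE replicates 1, 2 and 3 and 12, 11 and 11 in vector replicates 1, 2 and 3, so that TIPE replicate 1 holds all of its TIPE counts.

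**Figure D5:**
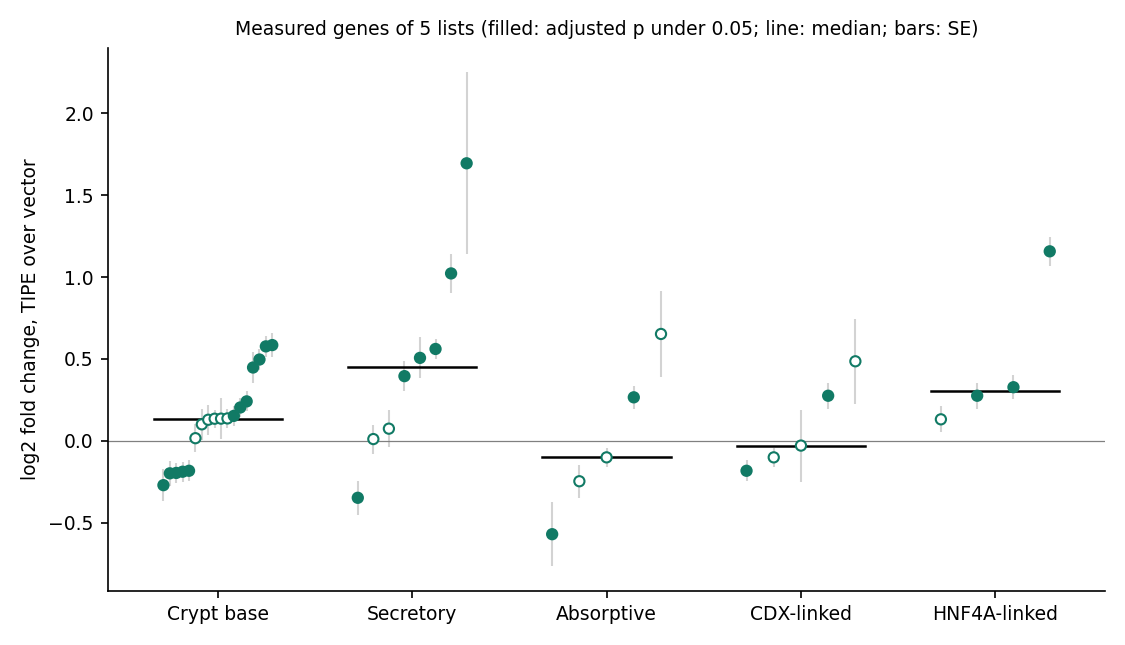
Log2 fold change of TIPE over vector for the measured genes of 5 lists, with bars of 1 standard error, filled points where the adjusted p was under 0.05 and a line at each median. The medians are 0.14 for crypt base, 0.45 for secretory, -0.10 for absorptive, -0.03 for CDX-linked and 0.30 for HNF4A-linked genes. After removal of the GC and length trend they are 0.09, 0.35, -0.0060, -0.0060 and 0.17 in the same order.

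As a description of likeness, Pearson's r of log2 CPM was taken between each measured member and every tested gene with a symbol and a mean of at least 1 FPKM. The points are the same 6 libraries, so a shared difference between the groups raises r. Only the highest of many r values are given, and over 6 points such values can lie near 1 without any link. The nearest genes to CDX2 were MAGED2, YPEL5 and SEC11A (r = 0.998, 0.998 and 0.997), and to GATA6 PABIR1, ZNF510 and PAFAH1B1 (1.000, 0.999 and 0.998). The nearest to FOXA2 were PFDN5, NKD2 and TUBB4B (0.997, 0.996 and 0.996). For SOX9 they were IL17RA, DCTN6 and UBE2E1 (0.994, 0.987 and 0.987), and for HNF4A CSTB, CIBAR1P1 and CCDC142 (0.985, 0.950 and 0.938).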

How the data were processed

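The authors deposited 1 table with a raw count and an FPKM value for each of 60605 Ensembl genes in each of 6 libraries, per the file headers. The deposited FPKM values are counts scaled by the deposited exonic gene size and by the library's total, and that formula gave every value within 0.005. HISAT2 2.0.1 and hg38 come from the submitters' processing notes. How reads were counted, on which annotation and whether by strand was not stated in the sources, so reads of genes that overlap on opposite strands may not be told apart.

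Groups came from the treatment label. The members and gene lists were chosen with earlier results of these data known. The 18 lists were written from general knowledge. Genes with a mean of at least 0.5 FPKM were kept (14205). Counts were fitted with edgeR 4.0.16 (quasi-likelihood test, TMM factors of 0.962 to 1.03, group as the only term) in R 4.3.3, and p-values were two-sided and adjusted by Benjamini-Hochberg over all genes of the fit. Standard errors are the absolute log2 fold change over the square root of F. Genes under the filter came from the same fit of 29836 genes with at least 1 count. Alternatives used DESeq2 1.42.0 and limma 3.58.1 on log2(FPKM + 1) among others. GC content came from the longest transcript in GENCODE 29, found for 99.4% of tested genes. Most named genes are the members, up to 4 called genes of each list with the smallest adjusted p, genes within 250 kb, and the 3 genes most like each member. Others were named outside this rule, among them EPCAM, LGR5, ZNRF3, MEX3A, SLC12A2, VIL1, TFF2, GFI1, GPA33, SOX1 and MUC6. So were LRIG1, MYC, CDH17, LGALS4, KRT20 and MUC2. These were not picked by a rule set in advance. The test was checked on simulated counts with the same dispersion for all genes, few changed genes and no GC trend. That check does not give the share of false calls in these data. A count of 0 allows 3 counts, or 0.147 to 0.215 CPM. Libraries of a group differed by a chi-square per gene of 2.32 to 8.28, above sampling noise. The pairs with TIPE replicate 3 were at 8.28 and 7.76, and the other pairs at 2.32 to 3.86. This cannot tell separate cultures from separate preparations of the same RNA. Each was kept as a separate library.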

Additional observations from a re-analysis of the deposited data

How the results depend on the processing

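Of 17 alternatives, CDX2 kept its call in all, at 0.848 to 0.979 with 1 library left out, and HNF4A passed in none. FOXA2 did not pass in limma on FPKM of equal totals (0.13, adjusted p = 0.0512), with the GC and length trend removed (0.098) or with that and the replicate block (0.097), and was at 0.234 to 0.319 with 1 library left out. GATA6 did not pass in DESeq2 (-0.435) and was at -0.503 to -0.381 with 1 library left out. SOX9 passed as lower in limma on log2(FPKM + 1) (-0.115), on log2(FPKM + 0.1) (-0.117), on FPKM of equal totals (-0.182) and with the GC and length trend removed (-0.123). HNF4A changed sign with upper-quartile factors (0.012), quantile normalization (0.0043), the GC and length trend removed (0.024, or 0.023 with the replicate block) and within its range of -0.025 to 0.018 with 1 library left out. The cause was not tested.

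Over all genes 2967 were higher and 2935 lower, against 1912 and 3242 in limma on log2(FPKM + 1), 1902 and 3248 with a pseudocount of 0.1, and 1310 and 4089 with FPKM of equal totals, where the median of all genes was -0.11. The number called was 4491 to 6337 with 1 library left out, lowest without vector replicate 2 and highest without TIPE replicate 3. With the replicate block 5601 genes passed, 5559 of them shared. Deviations of same-numbered libraries from their group means correlated at -0.051 to -0.0057, and none of the 6 correlated best with its own number. With 3 libraries per group, this cannot show whether equal numbers share a batch. Total counts ranked alike by number in both groups, with replicate 2 highest and replicate 3 lowest. The block alone changed no call of a member. Added to removal of the GC and length trend, it ended the call of SOX9 as lower (-0.123, adjusted p = 0.0882).

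Among neighbours of members that did not pass, signs changed in limma on FPKM of equal totals for TCOF1 (-0.045), HMGXB3 (-0.0059), POLR1D (-0.0058) and PKIG (-0.048). PKIG was also at -0.054 after removal of the GC and length trend and -0.056 with the block added, and between -0.00088 and 0.154 with 1 library left out. SLC12A2, a crypt base gene that passed, was at 0.030 with the trend removed, with or without the block. LINC00511, near SOX9, was at -0.033 in the reported fit and did not pass (edgeR adjusted p = 0.659). It passed as higher with the trend removed, at 0.170 with or without the block (adjusted p = 0.0182 and 0.0147). In limma on FPKM of equal totals it passed as lower (-0.155, adjusted p = 0.0393). Counts of listed genes moved by over 1.5 times in some settings. Over all settings they were 0 to 2 higher and 0 to 2 lower for CDX-linked genes, 1 to 4 higher for HNF4A, 2 to 4 higher and 0 to 3 lower for GATA or FOXA, and 2 to 5 higher and 1 to 2 lower for SOX9. They were 0 to 2 higher and 0 to 3 lower for absorptive, 4 to 9 higher and 0 to 5 lower for crypt base, and 0 to 1 lower for secretory genes. They were 0 to 3 higher and 1 to 2 lower for SOX, 0 to 2 higher for GATA, 0 to 3 higher for FOXA and HNF relatives, 1 to 3 higher for epithelial markers and 0 to 4 higher and 0 to 5 lower for mitochondrial transcripts. Counts under 200 per library limit what can be said of CDX2 and GATA6.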

Other observations

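Around CDX1, which had no counts, 5 genes within 250 kb were measured, with 1 higher and 1 lower. The shares among all 14205 tested genes were 20.9% higher and 20.7% lower. RPL7P1 rose to 276.96 to 378.76 FPKM in TIPE libraries, against 242 to 252.95 FPKM in vector libraries. On the log2 scale RPL7P1 was at 0.43 (edgeR adjusted p = 0.000208), and it did not pass in limma on FPKM of equal totals (adjusted p = 0.0736). PDGFRB, a receptor tyrosine kinase of mesenchymal cells next to CDX1, had 65, 78 and 51 counts in TIPE replicates 1, 2 and 3 and 37, 23 and 22 in vector replicates 1, 2 and 3. On the log2 scale it rose by 1.26 (edgeR without the filter, adjusted p = 3.16e-07), where 10.1% of the genes of that fit were called higher. It passed with each library left out in turn (adjusted p at most 0.000595). The sulfate transporter SLC26A2 fell (-0.48, adjusted p = 0.00233), but did not pass after removal of the GC and length trend (0.0862). Around HNF4A, whose own level did not pass, ADA, adenosine deaminase, rose to 8.76 ± 0.435 FPKM in TIPE libraries, against 6.04 ± 0.293 FPKM in vector libraries (SD, n = 3 each). This was 0.61 on the log2 scale (edgeR adjusted p = 1.04e-05). OSER1 also rose (0.39, adjusted p = 0.000130) and TTPAL fell (-0.22, adjusted p = 0.00708). Of the 8 measured genes within 250 kb of HNF4A, 2 rose and 1 fell, where 41.5% of all tested genes passed in either direction. PAN3, near CDX2, fell (-0.44, adjusted p = 0.000428). It was at -0.23 after removal of the GC and length trend (0.0370) and lost its call with the replicate block added to that removal (0.0558). POLR1D, also near CDX2, was at 0.13 and did not pass (0.0805), but passed as higher after removal of the trend (0.22, adjusted p = 0.00445) and with upper-quartile factors (0.15, adjusted p = 0.0469).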
